A study of Homo sapiens with 13 samples.

Results

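Matrix metalloproteinases and their tissue inhibitors, the TIMPs, were followed in human liver tumour cells made resistant to sorafenib. The set held 10 genes, MMP1, MMP2, MMP3, MMP7, MMP9, MMP14, MMP15, TIMP1, TIMP2 and TIMP3, out of 18377 genes with a value. Each gene was taken from the array row that the platform annotation ties to its symbol alone, and where there were several rows, from the row with the highest mean over the 13 arrays. All 10 listed symbols had such a row, 9 of them a single one and TIMP3 a pair.

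RNA from 13 culture flasks was measured on Affymetrix whole-transcript arrays, 1 flask per array, and levels are on the log2 scale, where a step of 1 is a 2-fold change. HepG2, which the labels call a human hepatoblastoma line, was grown without drug at 20% O2 (n = 3). HepG2S1 was derived from HepG2 over months of slowly rising doses of sorafenib, an inhibitor of RAF and receptor tyrosine kinases used against liver cancer, and was then kept in the drug. It was measured with 6 µM sorafenib at 20% O2 (n = 4), after withdrawal of the drug at 20% O2 (n = 3), and with 6 µM sorafenib at 2% O2 (n = 3). Every flask was harvested after 72 h, and all groups shared a medium with serum, insulin and the glucocorticoid dexamethasone. The labels do not say whether the withdrawn cells were already off the drug before these 72 h. Sorafenib was dissolved in DMSO, and the labels name no DMSO control for HepG2. The groups at hand hold 1 HepG2S1 line, so differences from HepG2 are those of that line, and selection, drug exposure and time in culture cannot be told apart. Whether the flasks came from separate cultures is not stated, and p-values therefore measure the spread between flasks.

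Matrix metalloproteinases are zinc proteases that cut collagens, laminins and other proteins outside the cell. Most are secreted as inactive proenzymes, while MMP14 and MMP15 are anchored in the membrane. TIMPs bind the active site of these enzymes and block it, and TIMP2 also helps MMP14 to activate the MMP2 proenzyme at the cell surface. In liver, stellate and inflammatory cells are well known sources of these proteins during fibrosis, and tumour cells can make them too. RNA levels do not measure the active enzymes.

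The arrays were alike in range, with medians of 7.30 to 7.42 and a median lower quartile of 5.76. Over all rows, r lay between 0.995 and 0.998 for 2 arrays of a group, between 0.991 and 0.996 for HepG2S1 arrays of unlike condition, and between 0.913 and 0.923 for an array of each line. Of the 9 measured hepatocyte markers all 9 were lower in HepG2S1 with sorafenib at 20% O2 than in HepG2, beside 27.2% of all genes. The linear levels of these markers were summed on each array. The log2 of that sum was 15.94 to 15.99 in HepG2 and 9.45 to 9.68 in HepG2S1. ALB, AFP and FGB, which encode albumin, alpha-fetoprotein and a fibrinogen chain, lay below the lower quartile in HepG2S1, so these defining markers of the labelled liver origin were absent or at the floor there. The fibroblast and stellate list, with 10 measured genes, summed in the same way to 11.62 to 11.68 in HepG2 and to 12.14 to 12.70 in HepG2S1. In that list 3 genes (DCN, LUM and FAP) rose and 1 (ACTA2) fell in HepG2S1 with sorafenib at 20% O2 against HepG2. Among all genes tested 30.1% rose and 27.2% fell there. ACTA2 had a mean of 11.02 in HepG2 and 9.03 in those HepG2S1 cells, and DCN of 5.16 and 10.59. Different genes thus weighed most in the sum of each line. The fibrillar collagen genes COL1A1, COL1A2 and COL3A1 did not pass the test in this comparison. Against HepG2, 3 genes rose and 2 fell after withdrawal, beside 29.6% and 27.0% of all genes. At 2% O2, 3 rose and 4 fell, beside 30.6% and 30.6%. COL3A1 was among the genes that fell in both, with log2 fold changes of -0.20 and -0.33, and COL1A1 fell at 2% O2, with -0.21. Their part in the results below was not tested.

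MMP7, TIMP1 and TIMP2 were higher in HepG2S1 than in HepG2, and MMP1, MMP2, MMP3, MMP14, MMP15 and TIMP3 were lower. This held in each of the 3 HepG2S1 conditions. MMP9 alone passed the test in none of the 6 comparisons. Withdrawal of the drug was followed by lower levels of TIMP1, TIMP2, TIMP3 and MMP15 and by a higher level of MMP7. At 2% O2 MMP7 was higher again, and MMP15 and TIMP2 were lower than at 20% O2.

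**Figure D1:**
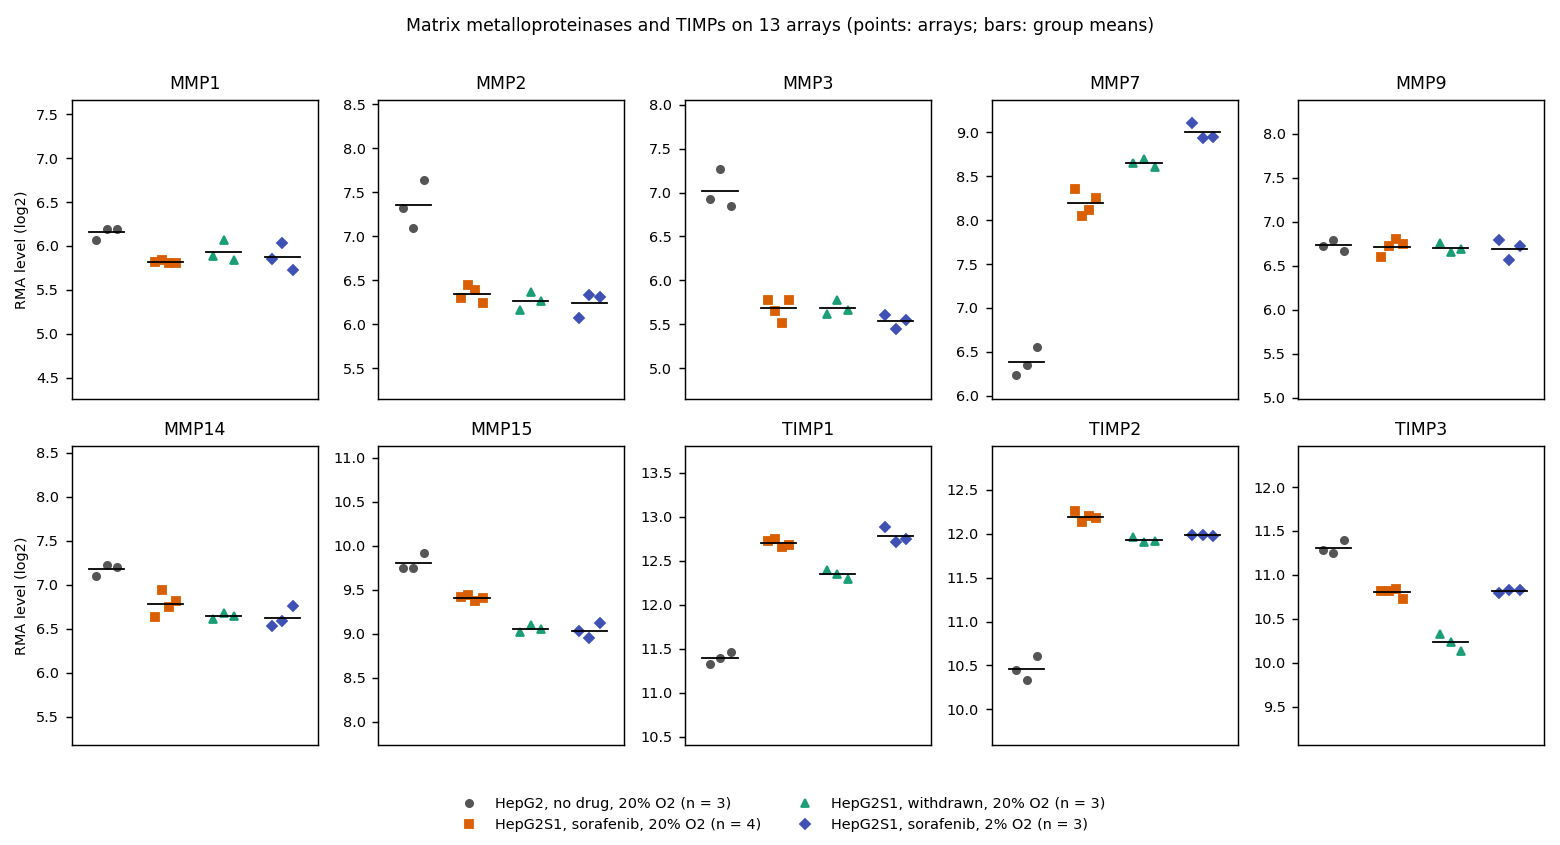
Log2 level of each of the 10 genes on the 13 arrays, with 1 panel per gene, points for single arrays, horizontal bars for group means, and vertical axes that all span the same number of log2 units around different centres. MMP7 climbs from HepG2 (6.23 to 6.56) to HepG2S1 with sorafenib at 2% O2 (8.94 to 9.10), while MMP9 lies between 6.57 and 6.81 on every array.

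The first question was how HepG2S1 under the drug at 20% O2 differed from untreated HepG2. In limma 3 of the 10 genes were higher, 6 were lower and 1 did not pass an adjusted p of 0.05. Over all genes tested 30.1% were higher and 27.2% lower in the same comparison, so the share of higher genes was near the background. The median log2 fold change of the 10 genes was -0.36, beside 0.01 over all genes. The arrays of HepG2 and HepG2S1 did not overlap for any of the 9 genes that passed. The share of all genes without overlap was not counted, so this does not set the 10 genes apart.

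MMP7 encodes matrilysin, a small secreted protease of epithelial cells that cuts matrix proteins as well as cell-surface proteins. Its level was 6.23, 6.35 and 6.56 on the HepG2 arrays and 8.35, 8.05, 8.12 and 8.25 on the HepG2S1 arrays with sorafenib at 20% O2. Every HepG2S1 array thus lay far above every HepG2 array. The log2 fold change was 1.81 ± 0.08 (SE), a 3.51-fold rise (limma, adjusted p = 2.68e-11). MMP7 was the single protease of the 7 in the set that rose.

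The sequence upstream of MMP7 is shown because this gene moved in every comparison. RefSeq promoter windows were found for 5 of the 10 genes, MMP7, MMP14, MMP15, TIMP1 and TIMP3. The window of MMP7 holds the 250 bases before the start of the gene, chr11:102530748-102530997 on the minus strand of GRCh38.p14, printed 5′ to 3′ along the gene.
MMP7: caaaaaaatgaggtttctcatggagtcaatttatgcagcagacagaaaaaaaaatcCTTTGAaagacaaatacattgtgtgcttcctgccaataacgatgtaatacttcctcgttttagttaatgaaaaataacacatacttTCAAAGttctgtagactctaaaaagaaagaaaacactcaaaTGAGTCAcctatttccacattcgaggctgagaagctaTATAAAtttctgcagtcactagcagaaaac
Capitals mark matches on either strand to short motifs, none of which overlap. From the 5′ end these are CTTTGA, the core bound by TCF factors of the WNT pathway, at -194 to -189 and, on the opposite strand, at -108 to -103. TGAGTCA, the AP-1 site, lies at -67 to -61. A match to TATAAA, the core promoter element that positions the start of transcription, lies at -30 to -25. Over 35116 RefSeq windows of the same length, TGAGTCA was found on either strand in 4.2%, CTTTGA in 11.2% and TATAAA in 10.7%. A match is a stretch of letters and was not measured as a bound site here.

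MMP1, an interstitial collagenase, and MMP3, stromelysin 1, are secreted enzymes that cleave fibrillar collagens and a wide range of matrix proteins, respectively. MMP3 was at 6.93, 7.27 and 6.85 on the HepG2 arrays and at 5.78, 5.66, 5.51 and 5.78 on the HepG2S1 arrays. It fell by 1.33 ± 0.09 (SE) on the log2 scale (limma, adjusted p = 4.84e-09), a 2.52-fold change. All 4 HepG2S1 values lay close to the lower quartile of the arrays, where array values flatten. MMP1 was near that level in both lines. It was at 6.07, 6.20 and 6.20 in HepG2 and at 5.82, 5.84, 5.80 and 5.81 in HepG2S1, and fell by 0.34 ± 0.07 (adjusted p = 0.00079).

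MMP2 and MMP9 are the gelatinases, which digest denatured collagen and the type IV collagen of basement membranes. MMP2 was at 7.32, 7.10 and 7.64 in HepG2 and at 6.29, 6.45, 6.39 and 6.25 in HepG2S1. The lowest HepG2 array lay above the highest HepG2S1 array. MMP2 fell by 1.01 ± 0.11 on the log2 scale (adjusted p = 5.49e-07), a 2.01-fold change. For MMP9, unlike MMP2, the arrays overlapped between all groups. Its values were 6.72, 6.80 and 6.67 in HepG2 and 6.60, 6.72, 6.81 and 6.74 in HepG2S1. The difference was -0.01 with a 95% confidence interval of -0.15 to 0.13 (adjusted p = 0.893). A change of more than 0.15 in the array value lies outside the interval. All MMP9 values, and the MMP2 values in HepG2S1, lay below the median of every array (7.30 to 7.42), and low array signals are drawn together. A change in MMP9 RNA may thus be larger than the interval shows.

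The membrane-anchored MMP14 and MMP15, which act on matrix next to the cell and, for MMP14, activate the MMP2 proenzyme, fell less than MMP2 and MMP3. All MMP14 values lay below the median of every array (7.30 to 7.42), where low signals are drawn together. MMP14 was at 7.10, 7.22 and 7.20 in HepG2 and at 6.63, 6.94, 6.75 and 6.82 in HepG2S1, a fall by 0.39 ± 0.07 (adjusted p = 0.000214). MMP15 was at 9.75, 9.75 and 9.92 in HepG2 and at 9.41, 9.43, 9.37 and 9.41 in HepG2S1. It fell by 0.40 ± 0.06 (adjusted p = 1.67e-05). The arrays did not overlap between the lines for either gene.

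Of the inhibitors, TIMP1 and TIMP2 rose and TIMP3 fell. TIMP1, a secreted inhibitor that blocks most secreted metalloproteinases, was at 11.32, 11.40 and 11.46 in HepG2 and at 12.73, 12.75, 12.66 and 12.68 in HepG2S1. The lines did not overlap, and the rise was 1.31 ± 0.06 on the log2 scale or 2.48-fold (adjusted p = 1.17e-11). TIMP2 was at 10.45, 10.33 and 10.61 in HepG2 and at 12.26, 12.13, 12.20 and 12.17 in HepG2S1. Its rise of 1.73 ± 0.06, or 3.31-fold (adjusted p = 1.04e-12), had the lowest p-value of the 10 genes in this comparison. TIMP3, unlike the other TIMPs, is held in the extracellular matrix and also inhibits some ADAM proteases. Its values were 11.29, 11.25 and 11.39 in HepG2. It was at 10.82, 10.82, 10.84 and 10.73 in HepG2S1, a fall by 0.51 ± 0.06 (adjusted p = 1.22e-06). The other row of TIMP3 moved the same way, from 8.94, 9.00 and 9.26 to 8.34, 8.25, 8.27 and 8.23.

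TIMP1 and TIMP3 moved apart in this comparison, and their upstream windows are shown to set the letters side by side. Both lie on the plus strand of GRCh38.p14, at chrX:47582186-47582435 for TIMP1 and chr22:32801455-32801704 for TIMP3, each with the 250 bases before the start of the gene from RefSeq.
TIMP1: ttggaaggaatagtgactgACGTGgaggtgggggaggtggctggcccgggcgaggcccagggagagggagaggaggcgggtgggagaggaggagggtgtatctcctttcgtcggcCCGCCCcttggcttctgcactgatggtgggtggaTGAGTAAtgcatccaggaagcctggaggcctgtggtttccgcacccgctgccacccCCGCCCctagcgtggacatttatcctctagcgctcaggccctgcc
TIMP3: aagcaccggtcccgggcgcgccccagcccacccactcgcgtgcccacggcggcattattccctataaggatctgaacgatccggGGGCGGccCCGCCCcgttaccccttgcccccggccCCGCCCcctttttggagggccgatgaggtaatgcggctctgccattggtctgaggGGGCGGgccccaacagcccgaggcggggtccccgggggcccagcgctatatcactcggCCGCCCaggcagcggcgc
Capitals mark motif matches on either strand, with no overlaps. TIMP1 held TGAGTAA, a variant of the AP-1 site, at -101 to -95, ACGTG, the core of the site bound by hypoxia-inducible factors, at -231 to -227, and GGGCGG, the GC box bound by Sp1, on 2 occasions. TIMP3 held GGGCGG on 5 occasions and none of the other motifs searched. MMP15 likewise held GGGCGG on 5 occasions and no other motif, and MMP14 held 1 match to GGGCGG and 1 to ACGTG. Over all windows TGAGTAA was found in 2.21%, ACGTG in 18.5% and GGGCGG in 42.6%. The windows of TIMP1, TIMP3 and MMP15 had a GC content of 64.8%, 72.4% and 74.8%, and that of MMP7 had 33.6%.

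**Figure D2:**
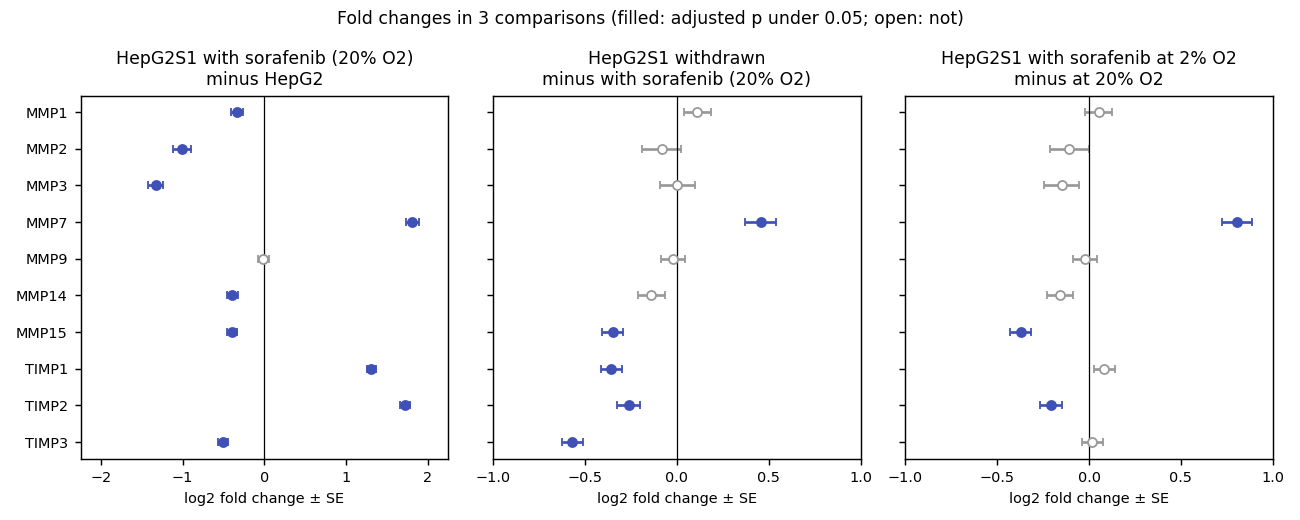
Log2 fold change of each gene with its SE in 3 comparisons, filled where the adjusted p was under 0.05 and open where not; the left panel has a wider horizontal axis than the other panels. Of the 10 genes 9 passed between HepG2S1 and HepG2, 5 after withdrawal and 3 at 2% O2, with MMP7 to the right in all 3 panels. Among all genes 57.3%, 18.0% and 15.2% passed in these comparisons.

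The second question was what changed when the drug was taken away from HepG2S1 at 20% O2. This comparison and the next share the 4 arrays with sorafenib at 20% O2, so a chance deviation of those arrays would enter both. After withdrawal 1 of the 10 genes was higher, 4 were lower and 5 did not pass, beside 10.1% higher and 7.9% lower over all genes tested. All 3 inhibitors were among the 4 lower genes, with MMP15. The median of the 10 genes was -0.11, beside -0.02 over all genes.

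TIMP3 changed most among the inhibitors. The withdrawn arrays were at 10.33, 10.23 and 10.14, all below the lowest array with sorafenib at 10.73. TIMP3 fell by 0.57 ± 0.06 on the log2 scale (adjusted p = 1.53e-05), a 1.48-fold change that added to the difference from HepG2. Its other row was at 7.75, 7.83 and 7.64 after withdrawal, again below all arrays with the drug. TIMP1 was at 12.39, 12.35 and 12.29 and fell by 0.36 ± 0.06 (adjusted p = 0.0005). TIMP2 was at 11.96, 11.91 and 11.91 and fell by 0.26 ± 0.06 (adjusted p = 0.0072). For TIMP1 and TIMP2 this was a shift towards HepG2 that left most of the difference between the lines in place, and for TIMP3 a shift further from it.

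MMP7 moved opposite to the inhibitors after withdrawal. Its arrays were at 8.65, 8.69 and 8.61, above the highest array with sorafenib at 20% O2, and the rise was 0.46 ± 0.08 (adjusted p = 0.00146), or 1.37-fold. MMP15 was at 9.02, 9.10 and 9.05, below all arrays with the drug, and fell by 0.35 ± 0.06 (adjusted p = 0.000667). The other 5 proteases did not pass the test. MMP3 had a difference of 0.00 with a 95% confidence interval of -0.20 to 0.20, and MMP2 of -0.08 with an interval of -0.31 to 0.15. MMP14 was at 6.61, 6.68 and 6.64, with a difference of -0.14 (interval -0.29 to 0.02). MMP1 was at 5.88, 6.07 and 5.84, with a difference of 0.11 (interval -0.04 to 0.27), and MMP9 was at 6.75, 6.65 and 6.69, with a difference of -0.02. CD68, a marker on the blood list that other cells also express, fell by 0.55 ± 0.06 in this comparison, while PTPRC, which marks all leukocytes, stayed below the lower quartile in every group.

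Against untreated HepG2, the withdrawn cells kept the directions seen under the drug, with 3 genes higher, 6 lower and 1 that did not pass. The background in that comparison was 29.6% higher and 27.0% lower. MMP7 was 2.27 ± 0.09 above HepG2 on the log2 scale, TIMP1 0.95 ± 0.06 and TIMP2 1.46 ± 0.07. TIMP3 lay below HepG2 by a difference of -1.08 ± 0.06 and MMP15 by -0.75 ± 0.06. MMP1 had the weakest call, with a difference of -0.22 ± 0.08 (adjusted p = 0.0211). Without replicate 1 or 3 of the withdrawn cells, or replicate 2 or 3 of HepG2, that call was lost at differences of -0.20 to -0.18 (adjusted p of 0.0629 to 0.0938). It was also lost with repeated quantile normalization (adjusted p = 0.0631) and with array weights (adjusted p = 0.0799).

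The third question was what low oxygen changed in HepG2S1 that stayed in sorafenib. At 2% O2, 1 of the 10 genes was higher, 2 were lower and 7 did not pass. Over all genes 8.99% were higher and 6.17% lower. These shares rest in part on single arrays. They were 6.20% and 3.17% without replicate 1 at 2% O2, 5.86% and 2.84% without replicate 2 at 2% O2, and 6.48% and 3.80% without replicate 4 at 20% O2. Of all genes called, 59.3% were higher, but only 35.1% when arrays were scaled to their 75th percentile. The direction of small shifts therefore depends on the scaling.

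MMP7 stood highest at 2% O2. The arrays were at 9.10, 8.94 and 8.95, all above those at 20% O2 with the drug. The rise was 0.80 ± 0.08 on the log2 scale or 1.75-fold (adjusted p = 1.31e-05). MMP15 was at 9.03, 8.95 and 9.12 and fell by 0.37 ± 0.06 (adjusted p = 0.000515), with no overlap. TIMP2 was at 11.99, 11.99 and 11.97 and fell by 0.21 ± 0.06 (adjusted p = 0.0331). This last call was lost without replicate 1, 3 or 4 of the arrays at 20% O2 or without any of the 3 arrays at 2% O2 (adjusted p of 0.0631 to 0.0894).

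TIMP1 and TIMP3, which had fallen after withdrawal, did not pass the test at 2% O2. TIMP1 was at 12.89, 12.72 and 12.75, with a difference of 0.08 (95% confidence interval -0.04 to 0.20, adjusted p = 0.332). TIMP3 was at 10.80, 10.83 and 10.83, with a difference of 0.02 (interval -0.11 to 0.14, adjusted p = 0.856). Its arrays at 2% O2 lay within the range of those at 20% O2, whose low end was replicate 4 at 10.73. The other row of TIMP3 was at 8.59, 8.38 and 8.26 at 2% O2, beside 8.34, 8.25, 8.27 and 8.23 at 20% O2. In that row 8.59 and 8.38 lay above the range at 20% O2. MMP1, at 5.86, 6.03 and 5.73, and MMP9, at 6.80, 6.57 and 6.72, overlapped with their values at 20% O2. MMP2 was at 6.07, 6.33 and 6.31, with a difference of -0.11, MMP3 at 5.61, 5.44 and 5.54, with -0.15, and MMP14 at 6.53, 6.58 and 6.75, with -0.16. None of these 5 proteases passed.

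Against HepG2, HepG2S1 at 2% O2 had 3 genes higher, 6 lower and 1 that did not pass, beside 30.6% higher and 30.6% lower over all genes. Of all genes called there, 50.0% were higher, and 40.0% with 75th percentile scaling. MMP7 was 6.13-fold higher than in HepG2 (log2 fold change 2.62 ± 0.09), its largest difference among the 6 comparisons.

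Cells at 2% O2 with the drug and cells withdrawn from it at 20% O2 differ in drug and oxygen together, and these cannot be told apart in that comparison. It gave 3 genes higher at 2% O2, none lower and 7 that did not pass, beside 10.8% higher and 7.73% lower over all genes. Higher genes made up 58.4% of all calls, and 48.2% with 75th percentile scaling. TIMP3 differed by 0.59 ± 0.06 (adjusted p = 1.29e-05), TIMP1 by 0.44 ± 0.06 (adjusted p = 0.000134) and MMP7 by 0.35 ± 0.09 (adjusted p = 0.0127). The MMP7 call was lost without replicate 1 at 2% O2, where the difference was 0.30 (adjusted p = 0.0676).

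These comparisons give the order of the groups for each gene. For MMP7 the order was HepG2S1 at 2% O2, withdrawn, with sorafenib at 20% O2, and HepG2, and each neighbouring pair differed. For TIMP1 it was 2% O2, sorafenib at 20% O2, withdrawn and HepG2, where the top pair did not differ beyond the spread. TIMP2 was highest with sorafenib at 20% O2, then at 2% O2, then after withdrawal, and lowest in HepG2, and the pair in the middle did not differ. TIMP3 was highest in HepG2, followed by 2% O2 and sorafenib at 20% O2, which did not differ, and lowest after withdrawal. MMP15 was highest in HepG2, then with sorafenib at 20% O2, and lowest after withdrawal and at 2% O2, which did not differ. For MMP1, MMP2, MMP3 and MMP14, HepG2 stood above the 3 HepG2S1 groups, and no neighbours among the latter differed. MMP9 had no neighbours that differed. Over the 3 HepG2S1 groups MMP7 had the widest range of group means, 0.80, followed by TIMP3 with 0.59, while MMP9 had the narrowest, 0.02.

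MMP7, MMP1 and MMP3 lie in a cluster of 9 metalloproteinase genes on chromosome 11, in the order MMP7, MMP20, MMP27, MMP8, MMP10, MMP1, MMP3, MMP12 and MMP13. The 6 other genes of the cluster had group means of 4.33 to 5.96, around or below the lower quartile of the arrays. None of these 6 passed the test between HepG2S1 with sorafenib at 20% O2 and HepG2 or after withdrawal. Among all genes 57.3% and 18.0% passed in these comparisons. At 2% O2 MMP12, macrophage elastase, rose by 0.17 ± 0.05 (adjusted p = 0.023), from a mean of 4.33 to 4.51. The neighbour next to MMP7, MMP20, had means of 5.96 in HepG2 and 5.81 in HepG2S1 with sorafenib at 20% O2, beside 6.38 and 8.19 for MMP7. MMP7 and MMP3 thus changed in opposite directions within the cluster.

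**Figure D3:**
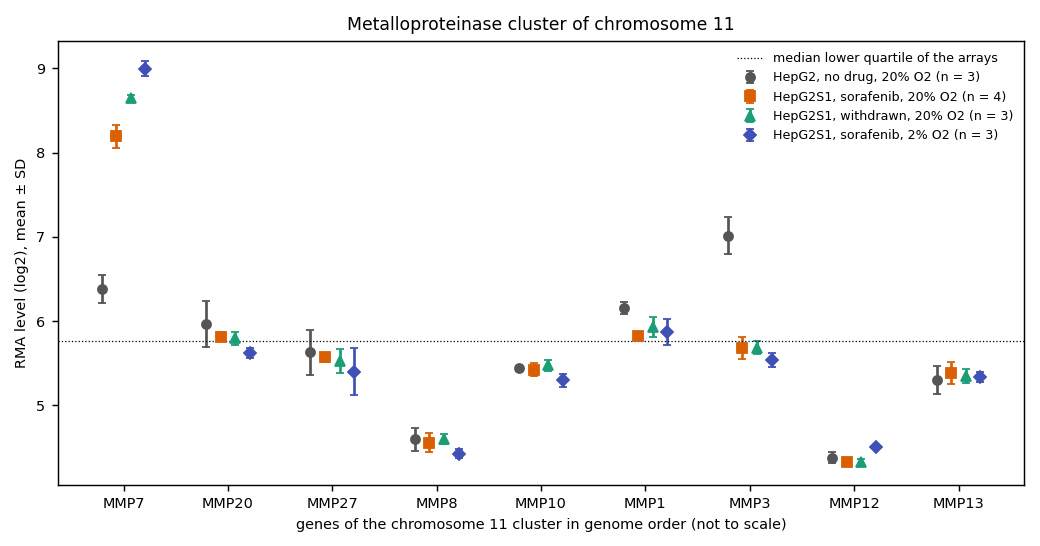
Mean log2 level with SD in the 4 groups for the 9 metalloproteinase genes of the chromosome 11 cluster, in genome order and not to scale, with the median lower quartile of the arrays (5.76) as a dotted line. MMP7 stands at 8.19 to 9.00 in HepG2S1, MMP3 at 7.01 in HepG2, and the 6 other genes stay between 4.33 and 5.96.

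Of the matrix metalloproteinases outside the set, 15 of 16 listed genes had a value. HepG2S1 with sorafenib at 20% O2 had 2 of them higher than HepG2 and 1 lower, and 12 did not pass. Among all genes 30.1% were higher and 27.2% lower. MMP24, a membrane-type protease, rose by 1.51 ± 0.06 (adjusted p = 4.86e-12) and MMP28, epilysin, by 0.94 ± 0.06. MMP11, stromelysin 3, fell by 1.38 ± 0.08 (adjusted p = 6.14e-10). MMP28 then fell by 0.37 ± 0.06 after withdrawal (adjusted p = 0.00058) and by 0.39 ± 0.06 at 2% O2 (adjusted p = 0.000515). It was the only 1 of the 15 that passed after withdrawal, where 18.0% of all genes passed. Both values rest on the same 4 arrays with the drug.

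Among 9 other inhibitors and clearance proteins, 2 rose, 5 fell and 2 did not pass in HepG2S1 with sorafenib at 20% O2. The shares over all genes were 30.1% and 27.2%. TIMP4, the last member of the TIMP family, rose by 2.20 ± 0.09 (adjusted p = 8.72e-12), from a mean of 7.21 to 9.40. A2M, alpha-2-macroglobulin, a liver-made plasma protein that traps proteases, fell by 7.13 ± 0.05, from a mean of 13.30 to 6.17. SPOCK1, a proteoglycan of the testican family, fell by 0.34 ± 0.06 after withdrawal (adjusted p = 0.000728) and by 0.36 ± 0.06 at 2% O2 (adjusted p = 0.000556). LRP1, an endocytic receptor that clears complexes of proteases and inhibitors from the cell surface, rose by 1.26 ± 0.07 at 2% O2 (adjusted p = 1.71e-08). Under the drug at 20% O2 it had a log2 fold change of -1.85 ± 0.07 against HepG2.

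**Figure D4:**
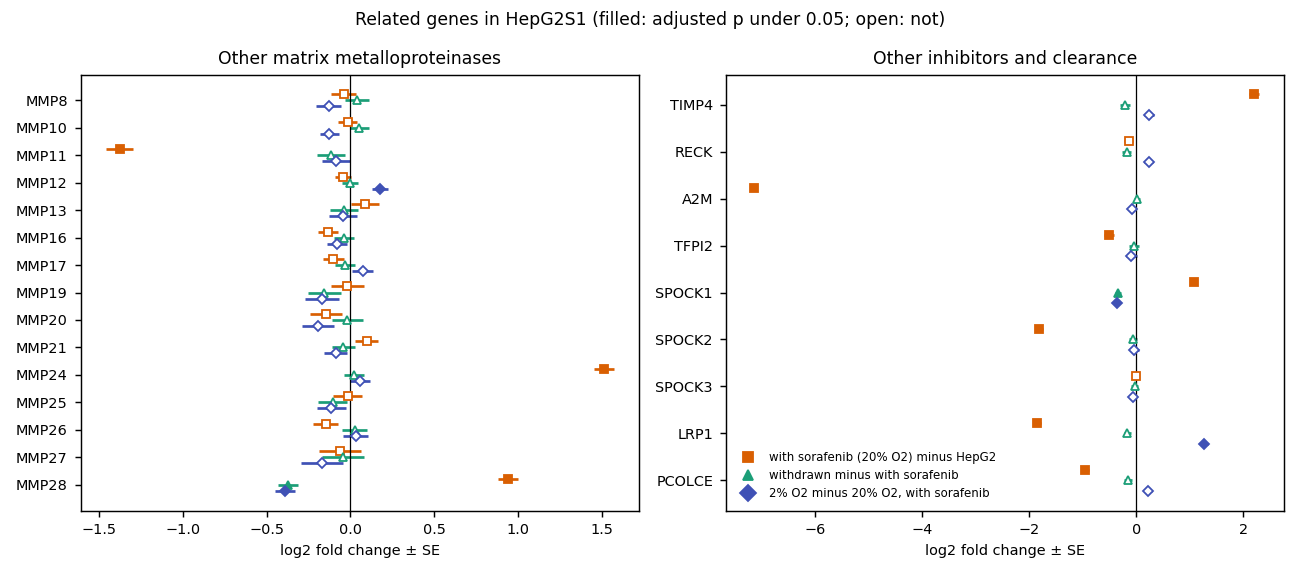
Log2 fold change with SE of 15 other metalloproteinases and 9 other inhibitors and clearance proteins in 3 comparisons, filled where the adjusted p was under 0.05 and open where not, on different horizontal scales. A2M at -7.13 and TIMP4 at 2.20 are the extremes on the right, while most metalloproteinases lie near 0.

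Of 16 activators and partners, 7 rose, 8 fell and 1 did not pass between HepG2 and HepG2S1 with sorafenib at 20% O2. Among all genes 30.1% rose and 27.2% fell. CD44, a hyaluronan receptor that docks metalloproteinases at the cell surface, rose by 4.23 ± 0.06 (adjusted p = 3.54e-17). PCSK6, a proprotein convertase, fell by 2.95 ± 0.07 (adjusted p = 5.19e-15). FURIN, the convertase that activates membrane-type metalloproteinases, had a log2 fold change of -2.42 and was picked after its value was seen. After withdrawal 1 gene rose and 2 fell, beside 10.1% and 7.9% of all genes. Those that fell were LCN2, a lipocalin that binds MMP9 (-0.63 ± 0.07), and CD9, a tetraspanin (-0.31 ± 0.06). At 2% O2 2 rose and 1 fell, beside 8.99% and 6.17% of all genes. PLAUR, the urokinase receptor, rose by 0.51 ± 0.07 (adjusted p = 0.000279), and PLG, plasminogen, fell by 0.34 ± 0.10 (adjusted p = 0.0294) to a mean of 5.48, below the lower quartile.

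Of 21 genes tied to the transcription of metalloproteinase genes, 9 rose, 11 fell and 1 did not pass in HepG2S1 with sorafenib at 20% O2. Among all genes 30.1% rose and 27.2% fell. IL1A, an interleukin that induces metalloproteinases, rose by 3.39 ± 0.09, and EGR1, an immediate early transcription factor, fell by 3.45 ± 0.08. After withdrawal 6 rose and 4 fell, with EGR1 at 0.82 ± 0.08 and IL1B at -0.69 ± 0.09. The shares over all genes were 10.1% and 7.9%. At 2% O2 6 rose and 5 fell, beside 8.99% and 6.17% of all genes. JUN, a subunit of AP-1, rose by 1.11 ± 0.08 (adjusted p = 4.35e-07) and IL1A by 0.95 ± 0.09 (adjusted p = 8.78e-06).

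TIMP3 can block some of the ADAM and ADAMTS proteases, which are relatives of the metalloproteinases. Of the 16 measured, 3 rose and 6 fell in HepG2S1 with sorafenib at 20% O2, beside 30.1% and 27.2% of all genes. ADAM15 rose by 1.66 ± 0.08 and ADAMTS1 by 1.48 ± 0.11. None passed after withdrawal, and at 2% O2 ADAM9 rose by 0.39 ± 0.07 (adjusted p = 0.0016). Among all genes 18.0% and 15.2% passed in these comparisons. Of 22 matrix proteins that these enzymes cut, 8 rose and 8 fell under the drug at 20% O2, beside the same 30.1% and 27.2%. SPP1, osteopontin, fell by 7.82 ± 0.06, from a mean of 13.38 to 5.56, and DCN, the proteoglycan decorin, rose by 5.43 ± 0.07. After withdrawal 4 rose and 1 fell, with DCN at 0.82 ± 0.07 and LUM, lumican, at 0.73 ± 0.14. The shares over all genes were 10.1% and 7.9%. At 2% O2 3 rose and 3 fell, beside 8.99% and 6.17% of all genes. Among those that rose were DCN at 0.52 ± 0.07 and COL5A1, a collagen V chain, at 0.46 ± 0.06. DCN and LUM are also on the fibroblast and stellate list.

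For MMP7 and TIMP3, which varied most among the HepG2S1 groups, the genes with the most similar pattern were sought over the 10 HepG2S1 arrays among 9188 genes with a mean above the median. The arrays of a group share their condition, so these correlations describe group patterns and are given without a p-value. DERL2 (r = 0.985), EGFR (0.976), PAM (0.972), IPMK (0.970) and ID2 (0.970) were most like MMP7. EGFR, the epidermal growth factor receptor, had group means of 11.02 with sorafenib at 20% O2, 11.37 after withdrawal and 11.73 at 2% O2, and 8.58 in HepG2. ID2, an inhibitor of DNA binding, rose in the same order among the HepG2S1 groups, from 9.20 to 9.98 and 10.21, but had a mean of 12.16 in HepG2. CTSA (r = 0.991), PGPEP1 (0.986), EME1 (0.985), MID2 (0.984) and CUL7 (0.984) were most like TIMP3. CTSA, the lysosomal protective protein cathepsin A, had means of 12.29 and 12.32 with sorafenib at 20% and 2% O2 and 12.07 after withdrawal. CUL7, a cullin scaffold of ubiquitin ligases, had means of 9.67 and 9.68 with the drug and 8.86 without it.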

How the data were processed

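RNA from 13 flasks was hybridised to 13 arrays. The authors deposited log2 values from RMA (submitters' processing notes), a method of background correction, normalization between arrays and probe summary; its version is not given in the sources used here. RMA draws low signals together, so folds near the floor are understated. The table names no detection call, scan date or batch. Of 28926 rows, 19310 had 1 gene symbol, 1752 several and 7864 none. For 19279 of the rows with 1 symbol, that symbol was updated or kept through its Entrez ID in RefSeq. Genes with several rows took the 1 with the highest mean, which left 18377 genes. limma 3.58.1 (R 4.3.3) fitted the 4 groups together, with eBayes and Benjamini-Hochberg adjustment over all genes in each of 6 comparisons and a threshold of 0.05. SEs and 95% confidence intervals come from this fit, SDs from the arrays of a group.

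The members and lists were chosen with earlier results of these data known. Beside the 10 members, each other list gave up to 2 called genes with the largest change in the 3 comparisons of HepG2S1 with sorafenib at 20% O2 against HepG2, of withdrawal and of 2% O2, and the 5 genes most like each of the 2 most variable members were named. MMP23B, ADAMTS7, ADAMTS15, LAMA3 and HNF4A are among the listed genes that are not analysed here. Hepatocyte, fibroblast and stellate, endothelial and blood marker lists were counted too. Of 6 measured endothelial genes 4 fell and none rose in HepG2S1 with sorafenib at 20% O2. Of 6 blood genes 1 rose and 1 fell, beside 30.1% and 27.2% of all genes. Promoter windows came from RefSeq (GRCh38.p14). The fit was tested on simulated data. As alternatives, moderation used a trend or a robust prior; each pair of groups was fitted by itself; genes under the 33rd percentile of mean level were dropped; arrays were scaled to the 75th percentile, quantile normalized again or weighted; rows of a gene were averaged or all rows tested; the threshold was 0.01; and each array was left out. Plots used matplotlib 3.10.9 and Python 3.11.15.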

Additional observations from a re-analysis of the deposited data

Results flagged for a closer look

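TIMP3 in HepG2S1 with sorafenib at 20% O2 had 1 array, replicate 4 at 10.73, apart from the others at 10.82, 10.82 and 10.84. It was 1 of 35 genes tested for an array that stands apart in this group of 4, and chance gives such a result in about 1 in 20 groups. Its other row had no such gap.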

How the results depend on the processing

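The 60 results (10 genes in 6 comparisons) were recomputed under 23 alternatives, of which 13 left out 1 array each. Members dropped by the 33rd percentile filter had no value there and were judged on the remaining alternatives. Of the 60 results, 44 kept their direction and their side of the threshold throughout and 16 did not. All changes of direction were in values that did not pass the test. The 33rd percentile filter removed MMP1, MMP2, MMP3, MMP9 and MMP14, the 5 members with the lowest means. The 5 left all passed in each comparison of HepG2S1 with HepG2 (3 higher and 2 lower). They also passed without the filter, where 9 of 10 members did. Under that filter 73.1% of all genes passed under the drug, 72.4% in withdrawn cells and 75.8% at 2% O2, against 57.3%, 56.6% and 61.2% without it, so the members' count is to be read against a higher background. Over all genes, array weights raised the counts to 2861 higher and 2370 lower after withdrawal (from 1852 and 1451), to 2341 and 2227 at 2% O2 against 20% O2 (from 1653 and 1133) and to 2725 and 2453 at 2% O2 against withdrawn cells (from 1992 and 1420). Scaling to the 75th percentile gave 1271 and 2345 at 2% O2 against 20% O2. A threshold of 0.01 gave 1123 and 847, 926 and 372, and 1261 and 788 for these 3 comparisons in turn. Calls that were lost were TIMP2 at 2% O2 against 20% O2, MMP1 in withdrawn cells against HepG2, and MMP7 at 2% O2 against withdrawn cells, which also miss a threshold of 0.01 (adjusted p = 0.0331, 0.0211 and 0.0127).

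Directions that turned with the scaling were as follows, all as log2 differences with the cause not tested. Repeated quantile normalization put MMP9 at 0.0056 after withdrawal, at 0.0413 at 2% O2 against 20% O2, at 0.0045 and 0.0401 against HepG2 (withdrawn and 2% O2) and at 0.0357 at 2% O2 against withdrawn cells, where array weights gave 0.0287. It put TIMP3 at -0.0185 at 2% O2 against 20% O2, and MMP2 at 0.0166 and MMP14 at 0.0244 at 2% O2 against withdrawn cells. Scaling to the 75th percentile put MMP3 at -0.0180 after withdrawal and TIMP3 at -0.0331 at 2% O2 against 20% O2.

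Leaving out single arrays moved these differences across 0. MMP9 ranged from -0.0426 to 0.0265 under the drug against HepG2, from -0.0573 to 0.0119 after withdrawal, from -0.0730 to 0.0418 at 2% O2 against 20% O2, from -0.0598 to 0.0021 and from -0.0859 to 0.0289 against HepG2 (withdrawn and 2% O2), and from -0.0551 to 0.0597 at 2% O2 against withdrawn cells. MMP3 ranged from -0.0539 to 0.0387 after withdrawal. At 2% O2 against 20% O2 MMP1 ranged from -0.0272 to 0.1250 and TIMP3 from -0.0069 to 0.0290. At 2% O2 against withdrawn cells MMP1 ranged from -0.1390 to 0.0132, MMP2 from -0.0785 to 0.0582, MMP14 from -0.0862 to 0.0237 and MMP15 from -0.0651 to 0.0183.

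No paired analysis was possible because the labels give no replicate number that is shared between groups, and the numbers used here only name the arrays. Values near the lower quartile of the arrays, such as those of MMP1 and MMP3 in HepG2S1, limit what a fold can show.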
